A study of Mus musculus with 9 samples.

Results

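The clustered protocadherins are the genes whose mouse symbol starts with Pcdha, Pcdhb or Pcdhg, with pseudogenes left out. By this rule they were 57 of the 52609 genes to which the quantified transcripts belonged, and 87 of 133399 transcripts. The alpha cluster had 14 genes, the beta cluster 22 and the gamma cluster 21. On mouse chromosome 18 of GRCm38, as annotated by GENCODE vM21, the alpha genes lie between 36930184 and 37187661, the beta genes between 37264938 and 37524479, and the gamma genes between 37661793 and 37841873, all on the plus strand.

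RNA-seq libraries had been made from mouse epiblast stem cell lines, which come from dissected epiblast and were kept on inactivated embryonic fibroblast feeders. The design text gives 4 lines with 2 or 3 replicates each, and all of them received FGF2 (10 ng/mL) and Activin A (20 ng/mL). The control line had no inhibitor (2 libraries), and the Dkk1 knockout line, labelled as lacking this secreted Wnt antagonist, had none either (3 libraries). The IWP2 line was kept in 5 uM IWP2, a compound that blocks Wnt secretion (2 libraries), and the IWP2-removed line had been derived with IWP2 and was then kept without it (2 libraries). The protocol also lists SB431542, with which none of these 4 groups is labelled. Since each group is 1 line, its genotype or treatment cannot be told apart from other differences between lines. Whether a line is 1 clone is not given in the labels, nor are replicates said to be separate cultures, so p-values measure only the spread between these libraries.

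Protocadherins of these clusters are cell surface proteins of the cadherin superfamily, best known from neurons, where the combination of isoforms on a cell serves self-recognition. Each alpha and gamma gene contributes its own large first exon, with its own promoter, which is spliced to constant exons shared by the whole cluster, whereas each beta gene is a single coding exon. In neurons the alternate alpha genes, the beta genes and the A-type and B-type gamma genes are chosen stochastically through CTCF-bound, methylation-sensitive promoters, while the C-type genes (Pcdhac1, Pcdhac2, Pcdhgc3, Pcdhgc4 and Pcdhgc5), which lie at the ends of the alpha and gamma clusters, are expressed more uniformly.

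The shared exons set what can be told apart in short reads. The share of a gene's exon bases that belonged to no other annotated gene had a median of 46.5% in the alpha cluster (8.6% in Pcdha4 to 61.1%) and of 55.4% in the gamma cluster (33.2 to 68.5%), and it was at least 90.3% in every beta gene. Among transcript estimates above 0.5 reads, 94 of 95 in the alpha cluster and 253 of 256 in the gamma cluster were not whole numbers (tolerance 0.001), because reads had been divided between transcripts, against 97 of 187 in the beta cluster. Levels are given as CPM, the reads of a gene relative to library size on the scale of edgeR's TMM normalisation, and as deposited TPM, which also accounts for transcript length, where genes are set side by side. Reads from the constant exons and from antisense genes depend on the authors' quantification, whose strand setting is not given. The symbol Pcdha11 stood for a pair of genes. The upstream one, ENSMUSG00000007440.10, starts at 37005203, close to where RefSeq places Pcdha10 (37005320). The downstream one, ENSMUSG00000102206.5, starts at 37010712, close to RefSeq's Pcdha11 (37010858). What is called upstream Pcdha11 here, by its annotated symbol, is therefore by position the gene that RefSeq names Pcdha10.

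The 9 libraries held 10849490 to 17892751 estimated reads. Dkk1 itself was at 6.77 and 8.95 CPM in the control libraries and at 0.701, 0.835 and 1.13 CPM in the libraries labelled Dkk1 knockout (log2 fold change -3.13 ± 0.68, adjusted p = 0.006 by edgeR). The Dkk1 knockout libraries were close to one another (chi-square per degree of freedom 1.74 to 2.16 between pairs), and the libraries of the other lines were farther apart, at 29.4 in the control line, 34.6 in the IWP2-removed line and 83.4 in the IWP2 line. Markers of several cell types, from lists, differed between the lines. The summed level of 10 trophoblast markers was 118 ± 0.915 CPM (SD, n = 2) in the control line and 3638 ± 27.1 CPM (SD, n = 3) in the Dkk1 knockout line, with 10 of 10 higher by edgeR (Esx1 had no read in control). Over all genes, 44.3% were called in this comparison, 21.3% higher and 23.0% lower. In the knockout line 10 epiblast markers were at 22.0% of control (2 higher and 6 lower), 15 neural markers at 17.2% (13 lower) and 15 feeder fibroblast markers at 54.1% (10 lower, none without a read). In bulk libraries, fewer cells of a type and less RNA per cell cannot be told apart.

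In the control line all 3 clusters were transcribed, and the gamma cluster carried most of the RNA. The summed TPM was 6.70 ± 0.504 for the alpha cluster, 21.7 ± 0.299 for the beta cluster and 73.6 ± 8.54 for the gamma cluster (SD, n = 2 each). The C-type genes of the gamma cluster made up 54.7 of the last value, and their leading gene, Pcdhgc3, had a mean of 39.8 TPM. Of the 54.7 TPM, 11.35 lay on a 2272-base transcript of Pcdhgc4 that consists almost wholly of constant exons, which all gamma genes share. The highest A-type or B-type means in control were 5.18 TPM for Pcdhga3, 3.85 TPM for Pcdhga10 and 3.31 TPM for Pcdhgb6. In the beta cluster Pcdhb6 led with 4.34 TPM, and in the alpha cluster Pcdha7 (1.14 TPM), Pcdha4 (1.10 TPM) and upstream Pcdha11 (1.07 TPM) stood close together. Of the 4.34 TPM, 2.35 lay on a 681-base transcript with only 10.3 and 33.5 reads in the control libraries, and 1.99 on the main transcript. Of the 1.10 TPM of Pcdha4, 0.325 lay on a retained-intron transcript. A read was found for 54 and 57 members in the control libraries, for 39, 35 and 35 in the knockout libraries, for 53 and 51 in the IWP2 libraries and for 56 and 53 in the IWP2-removed libraries.

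**Figure D1:**
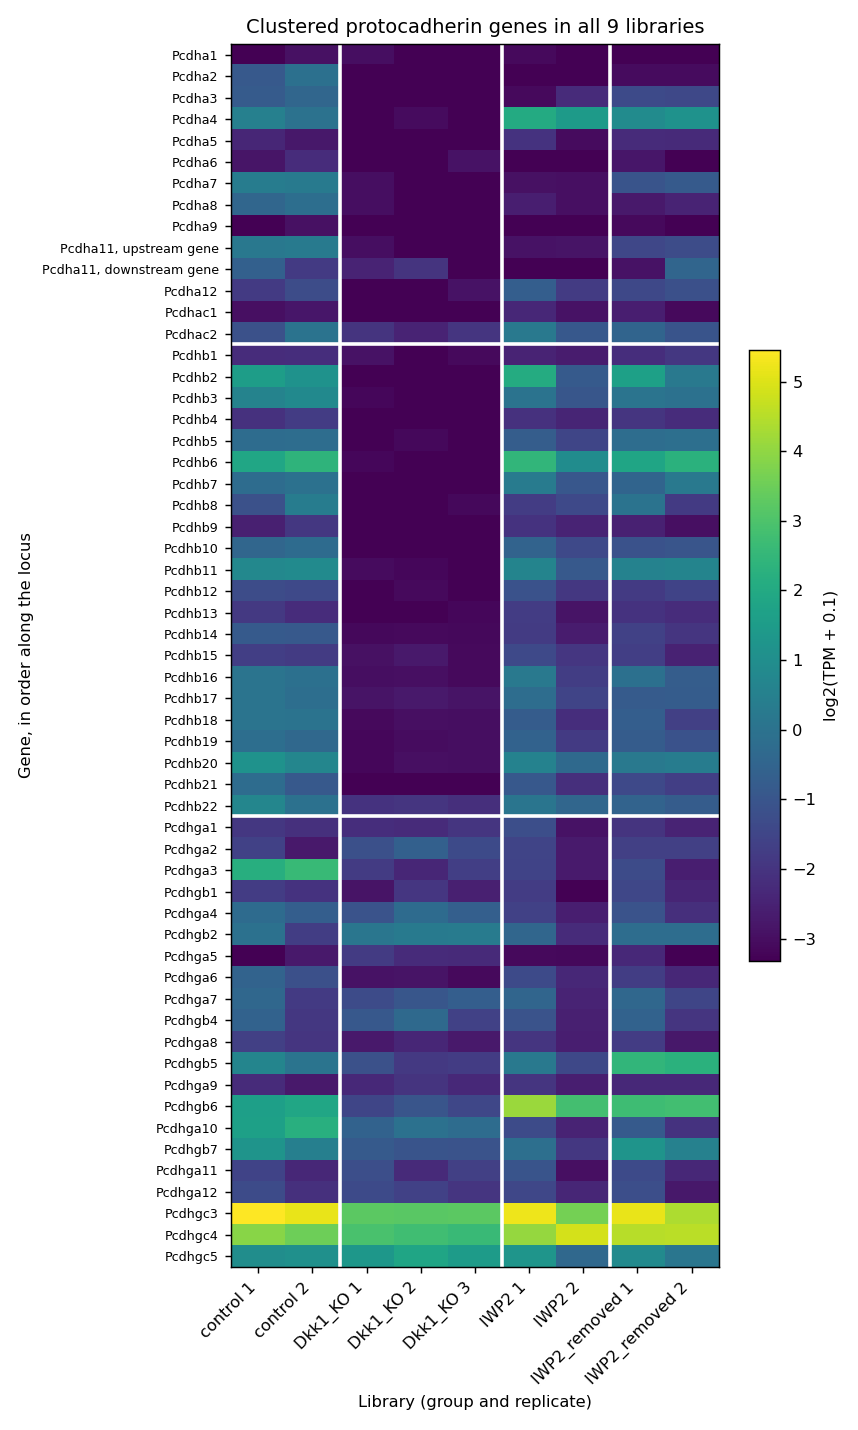
Level of each of the 57 genes (rows, in order along the locus; white lines divide the clusters) in each of the 9 libraries (columns; white lines divide the groups), coloured by log2(TPM + 0.1). The alpha and beta rows are dark in the 3 Dkk1 knockout libraries, and Pcdhgc3 and Pcdhgc4 are bright in every library.

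The alpha and beta clusters were almost silent in the Dkk1 knockout line, and the gamma cluster was reduced less. The alpha genes summed to 39.5 and 54.8 CPM in the control libraries and to 2.31, 1.14 and 2.05 CPM in the Dkk1 knockout libraries, which is 3.89% of the control mean. The beta genes summed to 95.6 and 107.0 CPM in control and to 3.13, 2.99 and 2.62 CPM in the knockout line, or 2.88% of control. The gamma genes summed to 423.9 and 422.3 CPM in control and to 155.5, 158.0 and 151.1 CPM in the knockout line, or 36.6%. For all 3 clusters the highest knockout library was below the lowest control library. Feeder fibroblast markers summed to 3626 and 4896 CPM in control and to 2269, 2317 and 2326 CPM in the knockout line, neural markers to 658 and 676 CPM and to 116, 117 and 112 CPM, and the part of either in the cluster sums was not tested.

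**Figure D2:**
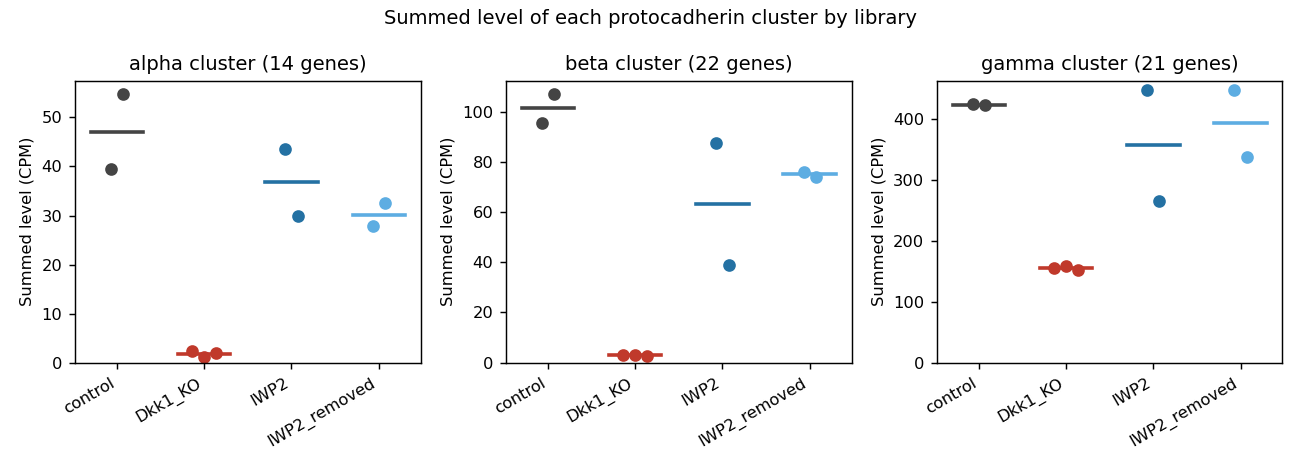
Summed level in CPM (vertical axes, starting at 0) of the alpha, beta and gamma genes in each library (points), with the group mean as a short line. The Dkk1 knockout libraries lie at 1.14 to 2.31 CPM (alpha), 2.62 to 3.13 CPM (beta) and 151.1 to 158.0 CPM (gamma), below every other library.

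Of the 57 genes, 51 passed the filter on low counts. Pcdha1, Pcdha6, Pcdha9, Pcdhac1, Pcdhb1 and Pcdhb9 did not. With edgeR's quasi-likelihood test at a Benjamini-Hochberg adjusted p below 0.05, 39 of the 51 differed between the Dkk1 knockout and control lines, 38 lower and 1 higher. This comparison called 44.3% of all 18096 genes tested, 23.0% lower and 21.3% higher. Lower were 10 of 10 tested alpha genes, 20 of 20 tested beta genes and 8 of 21 gamma genes, and Pcdhgc5 was the one called higher. DESeq2 called 2 gamma genes higher, Pcdhgc5 and Pcdhga2, and limma-trend none. Among all genes tested DESeq2 called 4033 higher and 4081 lower, and limma-trend 2550 higher and 3937 lower. The median log2 fold change was -6.35 in the alpha cluster, -6.11 in the beta cluster and -0.28 in the gamma cluster, against -0.03 over all genes. With the 8 tested genes that had no read in the knockout line set at their lower bounds, the alpha and beta medians were -5.85 and -5.20. The control and knockout values of all 39 genes did not overlap. This adds no support, since the same values had given the calls, and the share over all genes was not computed. A gene near silence in the knockout line passed the filter through its level in the other lines, so the counts describe the genes that passed and not all members.

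Among the alternate alpha genes, those other than the C-type, the knockout line held next to no reads. Pcdha7 was at 7.90 and 8.63 CPM in control and at 0.211, 0 and 0 CPM in the knockout line (log2 fold change -6.69 ± 0.69 SE, adjusted p = 0.00012 by edgeR). Pcdha4 was at 6.27 and 6.58 CPM in control and at 0, 0.180 and 0 CPM in the knockout line (-6.83 ± 0.59, adjusted p = 4.4e-05 by edgeR). A single knockout library held reads for either gene, and it was not the same one. Pcdha2, at 2.62 and 5.73 CPM in control, and Pcdha3, at 3.16 and 5.07 CPM, had no read in any of the 3 knockout libraries. Against a floor of 3 counts over the group, they were at least 57.9-fold and 57.1-fold lower (at least 36.3-fold for Pcdha2 without control replicate 2). Upstream Pcdha11 was at 7.02 and 8.77 CPM in control and at 0.209, 0 and 0 CPM in the knockout line. In all, 5 alpha genes were without a read in the knockout line and none was in the control line.

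Pcdhac2, the C-type gene at the end of the alpha cluster, kept a larger part of its level. It was at 2.59 and 8.04 CPM in the control libraries and at 1.41, 0.798 and 1.46 CPM in the knockout libraries (log2 fold change -2.1 ± 0.54, adjusted p = 0.013 by edgeR). The groups did not overlap, but the control libraries were far apart, and without control replicate 2 the change was -1.02 (adjusted p = 0.20 by edgeR). The call was also lost without knockout replicate 2 (adjusted p = 0.051 by edgeR). Of the few alpha reads left in the knockout libraries (33, 15 and 29), Pcdhac2 held 60.6%, 73.3% and 72.4%, with Wilson 95% intervals of 43.7 to 75.3%, 48.0 to 89.1% and 54.3 to 85.3%, which cover counting error only. In the control libraries it held 6.55% and 14.6%. The other alpha C-type gene, Pcdhac1, was low everywhere, at 0.189 and 0.361 CPM in control and without a read in the knockout line.

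Every tested beta gene fell, and for those with a read in the knockout line the log2 fold change lay between -8.48 and -2.27. Pcdhb6, the highest beta gene, was at 9.77 and 13.2 CPM in control and at 0.0701, 0 and 0 CPM in the knockout line (log2 fold change -8.48 ± 0.71, adjusted p = 3.9e-05 by edgeR). Pcdhb11 was at 8.81 and 11.2 CPM in control and at 0.14, 0.0759 and 0 CPM in the knockout line. Pcdhb2 (5.25 and 5.59 CPM in control), Pcdhb7 (3.29 and 4.42 CPM) and Pcdhb21 (4.41 and 3.05 CPM) had no read in the knockout line, which places them at least 75.2-fold, 53.4-fold and 51.8-fold lower. Among the beta genes reduced least was Pcdhb22, the last of the cluster, which was at 7.34 and 5.34 CPM in control and at 1.54, 1.06 and 1.06 CPM in the knockout line (-2.36 ± 0.31, adjusted p = 0.00042 by edgeR). The fitted change of Pcdhb15, a low gene at 0.712 and 0.746 CPM in control, was as small (-2.27 ± 0.62). Both genes and the division that follows were chosen after their values were seen. The first 13 beta genes, Pcdhb1 to Pcdhb13, together had 12 reads in the 3 knockout libraries and stood at 0.562% of their control level, whereas the last 9, Pcdhb14 to Pcdhb22, had 109 reads and stood at 5.23%. Without Pcdhb22, the genes from Pcdhb14 to Pcdhb21 stood at 3.20% of control.

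The gamma genes had log2 fold changes between -4.78 and 2.22 in the knockout line, 10 of them above 0. The 18 A-type and B-type genes together went from 111.9 and 127.5 CPM to 40.1, 44.9 and 38.4 CPM, and its 3 C-type genes from 312.0 and 294.8 CPM to 115.4, 113.0 and 112.7 CPM. The genes that had led the first set in control were among those that fell. Pcdhga3 went from 25.9 and 41.4 CPM to 1.41, 0.692 and 1.55 CPM (log2 fold change -4.78 ± 0.63, adjusted p = 0.00045 by edgeR). Pcdhgb6 went from 17.7 and 24.6 CPM to 1.91, 2.92 and 1.95 CPM (-3.22 ± 0.34, adjusted p = 0.00013 by edgeR), and Pcdhga10 from 18.4 and 32.0 CPM to 4.34, 6.48 and 5.67 CPM (-2.20 ± 0.50, adjusted p = 0.0073 by edgeR). Each of these 3 genes was lower in every knockout library than in either control library. The call on Pcdhga10 was lost without control replicate 2 (-1.71, adjusted p = 0.073 by edgeR). The other A-type and B-type genes called lower were Pcdhga6, Pcdhgb5 and Pcdhgb7. The remaining 12 did not pass, among them Pcdhgb2, chosen after its values were seen, which was at 5.07 and 1.40 CPM in control and at 7.43, 8.37 and 8.29 CPM in the knockout line (1.34 ± 0.63, adjusted p = 0.115 by edgeR). No gamma gene was without a read in the knockout line.

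The 3 gamma C-type genes differed from one another. Pcdhgc3 was at 255.3 and 246.4 CPM in control and at 70.2, 68.7 and 70.7 CPM in the knockout line (log2 fold change -1.84 ± 0.35, adjusted p = 0.0031 by edgeR). Pcdhgc4 was at 45.6 and 39.6 CPM in control and at 26.7, 23.2 and 21.5 CPM (-0.84 ± 0.24, adjusted p = 0.021 by edgeR). Pcdhgc5, the last gene of the cluster, was the one member called higher by edgeR, from 11.2 and 8.75 CPM to 18.5, 21.1 and 20.5 CPM (1.01 ± 0.32, adjusted p = 0.032 by edgeR). Pcdhgc3 and Pcdhgc5, which share the constant exons, moved in opposite directions, and none of the 3 genes overlapped between groups. The call on Pcdhgc5 was lost without any 1 of the 5 control and knockout libraries (adjusted p = 0.064 to 0.17 by edgeR). That on Pcdhgc4 was lost without either control library or without knockout replicate 2 or 3 (adjusted p = 0.059 to 0.11 by edgeR).

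**Figure D3:**
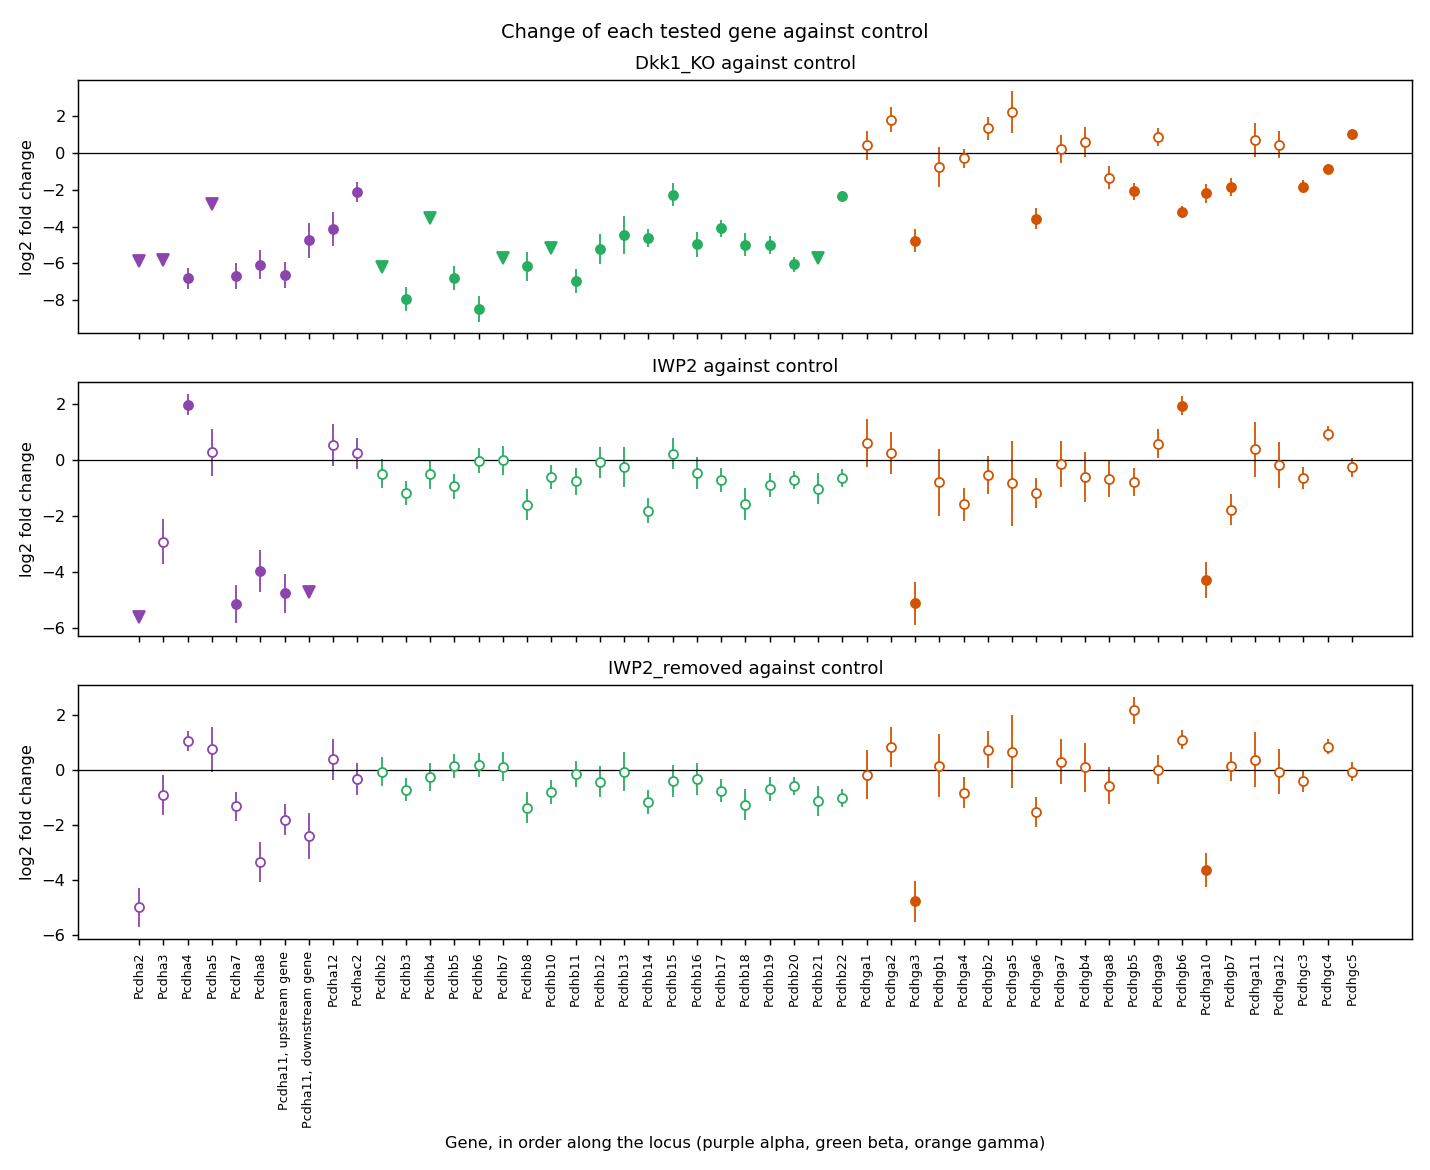
Log2 fold change against control (vertical axes) of the 51 tested genes in order along the locus, for the Dkk1 knockout, IWP2 and IWP2-removed lines; circles are fitted values with their SE, triangles are bounds for genes without a read in that line, and filled symbols passed an adjusted p of 0.05. In the top panel all alpha and beta genes lie below 0 and Pcdhgc5 is the filled gamma gene above 0; in the middle panel Pcdha4 and Pcdhgb6 are the filled genes above 0.

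At the level of single transcripts, 62 of the 87 were tested and 30 were lower in the knockout line (6 alpha, 19 beta and 5 gamma), with none higher. Over all 52793 transcripts tested, 11.1% were called, made up of 6.08% lower and 5.02% higher. DESeq2 called 40 member transcripts lower and none higher, and at an unadjusted p below 0.05 edgeR had 42 lower and 1 higher. Among all transcripts tested DESeq2 called 4981 higher and 4999 lower. The full-length transcripts of Pcdha7 (ENSMUST00000192631.1) and Pcdhb6 (ENSMUST00000061717.3) were among those called lower, as their genes were. Pcdhac2, Pcdhga10 and Pcdhgc5 passed as genes while their main transcripts had adjusted p of 0.068, 0.057 and 0.14 by edgeR, in a table whose common dispersion was larger, at 0.422 against 0.0524 for genes.

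In Pcdhgc4 the gene sum and the single transcripts diverged as well. Its full-length transcript (ENSMUST00000066140.12, 5024 bases) had 108.7 and 102.6 estimated reads in the control libraries and 12.4, 10.2 and 12.4 in the knockout libraries (log2 fold change -3.28, adjusted p = 0.0074 by edgeR). A short transcript (ENSMUST00000195239.1, 2272 bases, of which 153 belonged to no other gene) had 380.2 and 505.2 reads in control and 362.3, 290.4 and 285.0 in the knockout line (-0.53, adjusted p = 0.45 by edgeR). The short transcript therefore held most reads of the gene in every library while consisting almost wholly of constant exons. In a setting added after seeing the data, Pcdhgc4 without this transcript had a log2 fold change of -3.02 in the knockout line (adjusted p = 0.0019 by edgeR).

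**Figure D4:**
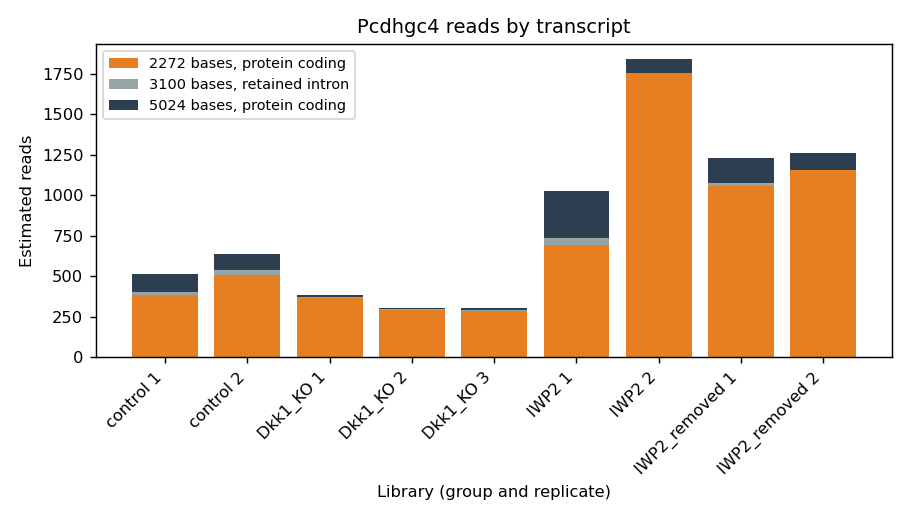
Estimated reads (vertical axis, starting at 0) of the 3 Pcdhgc4 transcripts, named by length and annotated type, stacked for each library. The 2272-base transcript holds most reads everywhere and reaches 1754.1 in IWP2 replicate 2, while the 5024-base transcript has 10.2 to 12.4 reads in the Dkk1 knockout libraries.

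In the IWP2 line all 3 clusters were transcribed, and single alpha and gamma genes differed from control in both directions. The alpha sum was 43.6 and 29.9 CPM in the IWP2 libraries (78.1% of the control mean), the beta sum 87.5 and 38.9 CPM (62.4%) and the gamma sum 447.1 and 265.3 CPM (84.2%). IWP2 replicate 2 had the lower sum of the pair in all 3 clusters. Below replicate 1 were 22 of 22 beta genes, 19 of 21 gamma genes and 7 of 14 alpha genes. Of the alpha genes, 4 had no read in the IWP2 line and could not be lower. The share of all genes below replicate 1 was not computed. The range of the IWP2 libraries overlapped that of the control libraries for the alpha and gamma sums and not for the beta sum. Feeder markers were at 3462 and 3092 CPM in these libraries (3626 and 4896 CPM in control) and neural markers at 1218 and 938 CPM (658 and 676 CPM in control), and their part in the sums was not tested.

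Against control, which is shared with the comparison above, 9 of the 51 tested genes differed in the IWP2 line, 2 higher and 7 lower by edgeR's test, where 2.19% of all genes were called (1.27% higher and 0.917% lower). In the alpha cluster 1 gene was higher and 5 were lower, and in the gamma cluster 1 was higher and 2 were lower. No beta gene passed with edgeR or limma-trend, DESeq2 called 1 lower (Pcdhb14), and 4 were lower and none higher at an unadjusted p below 0.05. Among all 18096 genes DESeq2 called 646 higher and 421 lower, and limma-trend 94 higher and 125 lower. Of the 20 tested beta genes 19 had a log2 fold change below 0. The median log2 fold change was -3.44 in the alpha cluster, -0.68 in the beta cluster and -0.61 in the gamma cluster, against 0.01 over all genes. These calls rest on the spread pooled over all 9 libraries. With the 6 libraries outside the knockout line 2 genes stayed, Pcdha7 and upstream Pcdha11, and with only the 4 libraries compared none did. Over all genes, those 6 libraries called 6 higher and 6 lower of 17214, and those 4 libraries called 0 higher and 1 lower of 16740. The member count also moved when single libraries were left out.

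Pcdha4, as a gene sum, was the alpha gene called higher in the IWP2 line. It was at 6.27 and 6.58 CPM in control and at 28.7 and 21.8 CPM in the IWP2 line (log2 fold change 1.98 ± 0.38, adjusted p = 0.040 by edgeR). The call was lost without any 1 control, knockout or IWP2-removed library (adjusted p = 0.054 to 0.17 by edgeR). As a share of reads, not per length, it held 15.8% and 12% of alpha reads in the control libraries and 65.9% (62.5 to 69.1%) and 73.0% (69.0 to 76.7%) in the IWP2 libraries. No transcript of Pcdha4 passed. The longest (ENSMUST00000192512.5) had 18.2 and 96.9 reads in control, 25.8% and 91.5% of the gene. In the IWP2 line it had 491.9 and 279.4 reads (log2 fold change 2.51, adjusted p = 0.575 by edgeR). A retained-intron transcript (ENSMUST00000194235.1) went from 20.2 and 8.9 reads to 0.0 and 0.0 (adjusted p = 0.67 by edgeR). Little of the sequence of Pcdha4 is its own, since the annotated model Gm42416 shares its first exon. When the reads of that model and of a like one were added to Pcdha4 and Pcdha7, a setting chosen after seeing the data, the change of Pcdha4 was 1.79 (adjusted p = 0.045 by edgeR).

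The alpha genes that fell in the IWP2 line were nearly silent there. Pcdha7 was at 7.90 and 8.63 CPM in control and at 0.236 and 0.245 CPM in the IWP2 line (log2 fold change -5.14 ± 0.69, adjusted p = 0.013 by edgeR). Upstream Pcdha11 was at 7.02 and 8.77 CPM in control and at 0.239 and 0.324 CPM (-4.76 ± 0.69, adjusted p = 0.016 by edgeR). Pcdha2, at 2.62 and 5.73 CPM in control, and downstream Pcdha11, at 3.31 and 1.12 CPM, had no read in either IWP2 library. They were at least 49.0-fold and 26.0-fold lower than in control, or 30.7-fold without control replicate 2 and 13.2-fold without control replicate 1. The call on downstream Pcdha11 was lost without any 1 library except IWP2 replicate 1 (adjusted p = 0.058 to 0.14 by edgeR) and with limma-trend (adjusted p = 0.40), and that on Pcdha2 without any 1 control or IWP2-removed library (adjusted p = 0.056 to 0.11 by edgeR). Those on Pcdha7 (adjusted p = 0.071) and upstream Pcdha11 (adjusted p = 0.090) were lost in edgeR without control replicate 2, and the latter also without control replicate 1 (adjusted p = 0.055). Pcdha8 was the remaining alpha gene called lower. In all of these genes both IWP2 libraries lay below both control libraries, on the same values that had given the calls. The C-type gene Pcdhac2 was at 8.40 and 4.16 CPM, which overlapped control (0.23 ± 0.56, adjusted p = 0.89 by edgeR). In each IWP2 library 3 genes held 90% of alpha reads, where 8 did so in each control library.

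**Figure D5:**
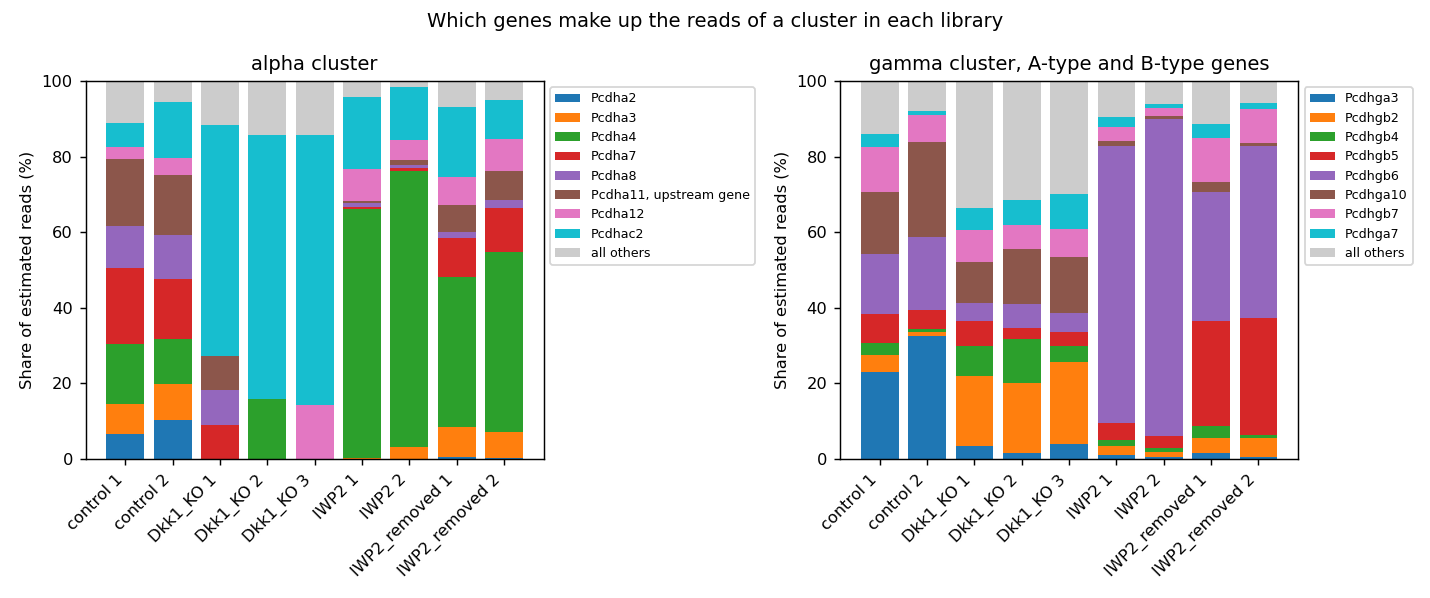
Share of estimated reads (vertical axes, percent) that each named gene held in each library, for the 14 alpha genes (left) and the 18 A-type and B-type gamma genes (right), with all other genes in grey. Pcdha4 and Pcdhgb6 fill most of the IWP2 bars, Pcdhac2 fills most of the alpha bars of the Dkk1 knockout line, which stand for 15 to 33 reads, and Pcdhgb5 is large in the IWP2-removed bars.

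Among the A-type and B-type gamma genes of the IWP2 line 1 rose and 2 fell. Pcdhgb6 was at 17.7 and 24.6 CPM in control and at 108.4 and 53.7 CPM in the IWP2 line (log2 fold change 1.93 ± 0.34, adjusted p = 0.029 by edgeR). Pcdhga3 fell from 25.9 and 41.4 CPM to 1.52 and 0.424 CPM (-5.12 ± 0.75, adjusted p = 0.017 by edgeR), and Pcdhga10 from 18.4 and 32.0 CPM to 1.92 and 0.635 CPM (-4.27 ± 0.64, adjusted p = 0.018 by edgeR). None of the 3 overlapped with control, on the same values that had given the calls, which adds no support. The call on Pcdhgb6 was lost without any 1 control, knockout or IWP2-removed library (adjusted p = 0.050 to 0.16 by edgeR) and with limma-trend (adjusted p = 0.11). In edgeR, that on Pcdhga3 was lost without either control library or knockout replicate 1 (adjusted p = 0.051 to 0.095), and that on Pcdhga10 without control replicate 2 or any 1 knockout library (adjusted p = 0.050 to 0.098). Pcdhgb6 held 73.5% (71.8 to 75.1%) and 83.8% (81.5 to 85.9%) of the A-type and B-type reads in the IWP2 libraries, against 15.8% and 19.3% in control, while Pcdhga3 had led in control with 23.2% and 32.5%. Summed, these 18 genes were at 147.5 and 64.1 CPM in the IWP2 line and at 111.9 and 127.5 CPM in control, so the groups overlapped.

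Among the gamma C-type genes the IWP2 libraries disagreed with each other. Pcdhgc3 was at 231.6 and 88.7 CPM (log2 fold change -0.65 ± 0.39, adjusted p = 0.47 by edgeR), and Pcdhgc4 at 57.0 and 107.0 CPM (0.94 ± 0.26, adjusted p = 0.12 by edgeR). In IWP2 replicate 2 Pcdhgc4 held 40.3% of gamma reads, against 9.39 to 23.5% in the other libraries. Of its reads there, 1754.1 lay on the short transcript of constant exons and 88.5 on the full-length one. A transcript of Pcdhgc3 annotated as a target of nonsense-mediated decay (ENSMUST00000192103.1) had 241.6 reads in the same library and 49.4 in IWP2-removed replicate 2, and none in the other 7. No member transcript differed between the IWP2 and control lines by edgeR, where 0.0663% of all transcripts were called (0.0246% higher and 0.0417% lower). At an unadjusted p below 0.05, 3 were higher and 10 lower, DESeq2 called 1 higher and 6 lower, and limma-trend called 5 lower. The shares of all transcripts under these other measures are not given here, so these counts are only a description.

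In the IWP2-removed line Pcdha4 and Pcdhgb6 again held the largest shares of alpha and of A-type and B-type gamma reads, and Pcdhga3 and Pcdhga10 were lower than in control. The alpha sum was 27.9 and 32.5 CPM (64.1% of control), the beta sum 76.2 and 73.8 CPM (74.0%) and the gamma sum 447.1 and 337.5 CPM (92.7%). For the alpha and beta clusters both libraries lay below both control libraries, whereas the gamma sums overlapped. Against control, 2 of the 51 tested genes differed by edgeR, both lower and both in the gamma cluster, where 1.25% of all genes were called (0.669% higher and 0.586% lower). These were Pcdhga3, at 1.99 and 0.459 CPM (log2 fold change -4.77 ± 0.74, adjusted p = 0.027 by edgeR), and Pcdhga10, at 3.08 and 1.03 CPM (-3.62 ± 0.62, adjusted p = 0.037 by edgeR). Both calls were lost when any 1 library of the control, knockout or IWP2-removed lines was left out. The median log2 fold change was -1.12 in the alpha cluster, -0.50 in the beta cluster and 0.10 in the gamma cluster, against 0.00 over all genes.

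No alpha gene passed in this comparison by edgeR, and 1 was higher and 5 lower at an unadjusted p below 0.05, while DESeq2 called 3 lower and limma-trend 4. Among all 18096 genes DESeq2 called 345 higher and 312 lower, and limma-trend 37 higher and 67 lower. Pcdha2, at 0.120 and 0.129 CPM, was close to the threshold (adjusted p = 0.051 by edgeR) and was called lower by DESeq2, by limma-trend and by edgeR without either IWP2 library. No beta gene passed by edgeR, DESeq2 or limma-trend, with 3 lower at an unadjusted p below 0.05. Pcdha4 was at 11.1 and 15.5 CPM (log2 fold change 1.05 ± 0.38, adjusted p = 0.30 by edgeR) and held 40.0% and 47.8% of alpha reads, more than any other alpha gene. Pcdhgb6 was at 42.9 and 48.6 CPM (1.11 ± 0.33, adjusted p = 0.20 by edgeR) and led the A-type and B-type gamma genes with 34.2% and 45.4% of their reads. For both genes the 2 libraries lay above both control libraries, although neither passed. The share of all genes that do so was not computed.

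Set directly against the IWP2 line, the IWP2-removed line had no member called by edgeR, where 0.0608% of all genes were called (0.0387% higher and 0.0221% lower). The median log2 fold change was 1.31 in the alpha cluster (0.58 with 2 genes at their bound), 0.20 in the beta cluster and 0.35 in the gamma cluster, against -0.01 over all genes. At an unadjusted p below 0.05, 8 genes were higher and 2 lower. DESeq2 called 4 higher (Pcdha7, upstream Pcdha11, Pcdhgb5 and Pcdhgb7) and limma-trend none. Among all 18096 genes DESeq2 called 162 higher and 220 lower, and limma-trend 3 higher and 2 lower. Pcdha7 was at 0.236 and 0.245 CPM in the IWP2 line and at 2.87 and 3.74 CPM after removal, still below the 7.90 and 8.63 CPM of control (log2 fold change against the IWP2 line 3.81 ± 0.68, adjusted p = 0.088 by edgeR). Pcdhgb5, chosen after its values were seen, was at 6.65 and 2.1 CPM in the IWP2 line and at 35.1 and 33.1 CPM after removal, above the 8.76 and 6.47 CPM of control (2.96 ± 0.51 against the IWP2 line, adjusted p = 0.084 by edgeR). It held 28.0% and 30.9% of the A-type and B-type gamma reads after removal. Neither gene overlapped between the IWP2 and IWP2-removed lines, and neither passed the test. How many of all genes do not overlap there was not computed. Of the member transcripts none was called by edgeR in either comparison of the IWP2-removed line, in which 0.0114% (against control, 0.00947% higher and 0.00189% lower) and 0.0% (against IWP2) of all transcripts were called. Against control 3 were higher and 4 lower at an unadjusted p below 0.05 and DESeq2 called 2 lower and limma-trend 1 lower. Against the IWP2 line 6 were higher at that level and none lower, DESeq2 called 3 higher and limma-trend none. For these transcript counts too, the shares of all transcripts outside edgeR's adjusted test are not given.

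Genes that act on or with the clusters, and their neighbours, were measured from further lists. Of 12 genes of promoter architecture (CTCF, cohesin and its loaders and releasers), 3 were higher and 4 lower in the Dkk1 knockout line, where 21.3% of all genes were higher and 23.0% lower, with a median log2 fold change of -0.01. Of 13 genes of DNA methylation and silencing, 2 were higher and 5 lower. Dnmt3l, a cofactor of the de novo methyltransferases, was at 0.356 and 0.124 CPM in control and at 88.4, 86.8 and 94.8 CPM in the knockout line (log2 fold change 8.61 ± 0.30). The genes of these enzymes went opposite ways, with Dnmt3a falling from 184.7 and 170.9 CPM to 52.1, 50.4 and 52.6 CPM and Dnmt3b rising from 139.4 and 138.5 CPM to 449.7, 460.0 and 469.2 CPM (log2 fold changes -1.78 ± 0.18 and 1.73 ± 0.23). Of 20 genes for partners and processing enzymes of protocadherins, 7 were higher and 6 lower. Protocadherins encoded outside the clusters were lower in 7 of 12 and higher in 2 of 12 (median -2.39), and their summed level was at 90.8% of control. Of 16 tested genes beside or between the clusters, 4 were higher and none lower by edgeR, with 6 higher and 1 lower at an unadjusted p below 0.05. This list includes Gm42416, the model that shares the first exon of Pcdha4, with a log2 fold change of -6.79 (adjusted p = 0.080 by edgeR). Diaph1, which directly follows the gamma cluster, rose from 66.7 and 60.1 CPM to 133.4, 128.1 and 134.7 CPM (1.06 ± 0.12). In the comparisons of the IWP2 and IWP2-removed lines with control, 4 calls were made among these lists and 8 classical cadherins. The lists had 12, 13, 20, 12 and 16 genes tested in each. Of all genes, 2.19% (IWP2) and 1.25% (IWP2-removed) were called in these 2 comparisons. Arap3, a neighbour of the gamma cluster, was lower in both (-2.04 ± 0.21 and -1.14 ± 0.20), Psen2, a subunit of the gamma-secretase that cleaves protocadherins, was higher in the IWP2 line (0.995 ± 0.19), and Setdb1, a histone methyltransferase gene, was higher in the IWP2-removed line (1.0 ± 0.14).

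Genes whose pattern over the lines was like that of the clusters were too many to single out. Over the 4 group means, 537 of 13077 compared genes had a Pearson correlation of at least 0.99 with the alpha sum, 438 with the beta sum, 354 with the gamma sum and 32 with Pcdha7. With 4 points that share their libraries, these counts are a description.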

How the data were processed

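The deposited tables hold, per transcript, an estimated count (expected count) and TPM, which the authors made with Salmon, per the submitters' processing notes. These notes also name DESeq2 and edgeR, and the genome build and transcript release are not given in the sources used here. Transcript IDs were matched without version to GENCODE vM21 (133399 of 133618, of which 2166 had another version), and the 219 unmatched ones held 0.117 to 0.161% of reads and were left out. Estimated counts were summed to genes, rounded and tested with edgeR 4.0.16 (TMM, filterByExpr, glmQLFit and glmQLFTest on 4 group means over 9 libraries, Benjamini-Hochberg adjustment over all features, threshold 0.05); transcripts were tested in the same way. The SE is the absolute log2 fold change divided by the square root of F. The procedure was also run on simulated data with the same spread in every group. The spread differed between these lines, so that run cannot support calls that rest on the pooled spread. Overlap of groups, sums and shares (Wilson 95% intervals) were computed from CPM or reads. Alternatives used DESeq2 1.42.0, limma 3.58.1 on log2(TPM + 1), other scalings and filters, other sets of libraries and blocks. Depth, at 10849490 reads or more per library, limits genes under a few CPM.

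Genes were named by a rule: Pcdha7, the C-type genes, the 3 genes of each cluster with the highest mean TPM, and up to 6 called genes with the largest change per comparison and direction. The members and lists were chosen with earlier results of these data known. The polymorphic pseudogene Pcdhgb8 was left out of the members.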

Additional observations from a re-analysis of the deposited data

How the results depend on the processing

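Calls between the Dkk1 knockout and control lines numbered 27 to 44 genes over all settings (39 as reported), and the beta sum was -5.12 on the log2 scale and -5.85 as summed TPM. The gamma sum was -1.45, -1.57 as summed TPM and -1.52 with upper-quartile factors. Averaging the 3 knockout libraries to 1 left 27 genes, all lower, and 0 transcripts in place of 30. For the IWP2 line against control (9 genes), 15 were called with no filter on low counts, 0 with only the 2 groups compared and 2 without the knockout libraries. For the IWP2-removed line against control (2 genes), DESeq2 called 6, no filter 8, only the 2 groups 0, limma-trend 6 and the 6 libraries without the knockout line 0. Against the IWP2 line (0 genes), DESeq2 called 4 and no filter 5. For transcripts, where edgeR called 0, DESeq2 called 7 and limma-trend 5 (IWP2 against control), 2 and 1 (IWP2-removed against control), and 3 by DESeq2 (against the IWP2 line). Their shares over all transcripts are not given here. Calls over all genes moved with the settings and with the library left out as well. With no filter on low counts they were 685 higher and 535 lower of 36509 for the IWP2 line against control. For the IWP2-removed line they were 362 and 370 against control, and 202 and 212 against the IWP2 line. The cause of these differences was not tested.

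Leaving out 1 library at a time moved the number of member genes called. Without any 1 knockout library, 3 or 4 were called for the IWP2 line against control and 0 for the IWP2-removed line against control. Over all genes (17956 to 17978 tested), 47 to 58 were then higher and 54 to 59 lower for the IWP2 line. For the IWP2-removed line, 12 to 17 were higher and 17 to 19 lower. Leaving out a control, IWP2 or IWP2-removed library left 1 library in its group, so no count is given for those fits. Sums with 1 library left out follow, for the knockout, IWP2 and IWP2-removed lines against control, then IWP2-removed against IWP2. The sums (log2) ranged from -4.90 to -4.43, -0.66 to -0.10, -0.86 to -0.39 and -0.53 to 0.013 in the alpha cluster, from -5.20 to -5.04, -1.38 to -0.21, -0.51 to -0.35 and -0.22 to 0.95 in the beta cluster, and from -1.46 to -1.43, -0.67 to 0.08, -0.33 to 0.08 and -0.19 to 0.56 in the gamma cluster, in the same order of comparisons.

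The libraries share replicate numbers, but nothing says that a number marks a shared batch. Deviations of same-numbered libraries correlated at 0.41 to 0.60 among the control, IWP2 and IWP2-removed lines and at -0.07 to -0.01 with the knockout line. With the replicate block by number, 38 genes and 17 transcripts were called in the knockout line, 9 genes in the IWP2 line, 3 in the IWP2-removed line against control and 0 against IWP2. With the letters in the file names as the block the counts were 40 genes and 20 transcripts, 8, 5 and 0. Against control in the IWP2-removed line, Pcdha2 passed with the block by number (adjusted p = 0.044) or letter (0.036), Pcdhga10 missed with the block by number (0.050), as did Pcdhgc4 in the knockout line (0.053), and downstream Pcdha11 in the IWP2 line missed with the block by letter (0.052).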

Other observations

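Several annotated features of the same locus that the rule leaves out had reads. Pcdhgb8, annotated as a polymorphic pseudogene among the gamma genes, had 188.4 and 275.1 estimated reads in the control libraries and 15.8, 15.3 and 25.3 in the Dkk1 knockout libraries. It had 3.77 and 0 reads in the IWP2 line and 5.63 and 11.2 in the IWP2-removed line, so that, like Pcdhga3 and Pcdhga10, it was highest in control. Gm42416, a model that joins the first exon of Pcdha4 to the gamma constant exons, had 8.63 and 15.7 reads in control and 35.2 in IWP2-removed replicate 1, and was listed at 0 in the other 6 libraries. Gm38182, a noncoding model that includes gamma constant exons, had 50.3 and 134.6 reads in control and 37.1 to 50.2 in the knockout libraries. BC037039, annotated as antisense to the start of Pcdhgc3, had 9.17 and 14.2 reads in control, 1.01 to 4.07 in the knockout libraries and 12.2 to 21.5 in the other 4. Taf7, which lies between the beta and gamma clusters, had 441 and 602 reads in control and 718 to 771 in the knockout libraries.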
